A study of Mus musculus with 15 samples.

Results

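The genes described here are the 8 genes named for gluconeogenesis and the release of glucose by the liver: G6pc, Pck1, Pck2, Fbp1, Pcx, Slc37a4, Slc2a2 and Ppargc1a. They were picked by name from the gene names printed in the array files. The choice was made with earlier results of these data known, so no count over them is independent evidence. The array carried 10 probes with these names, and where a gene had more than 1 probe the brightest stood for it. The 8 genes were part of 27396 genes and single-probe transcripts tested. All 8 were well above background on 15 of 15 arrays, so the filter on dim probes removed none of them.

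The 15 livers came from C57BL/6J mice at postnatal day 1, with 1 Agilent single-colour array for each pup. Wild-type littermates gave 5 of them. The other 10 pups (here KO) are labelled as lacking the miR-379/miR-410 microRNA cluster on the chromosome inherited from the mother. Blood glucose divided these 10 into 3 that the sample titles call normoglycaemic and 7 that they call hypoglycaemic, while the design text speaks of mild and severe hypoglycaemia. Blood glucose, as the labels give it, was 51, 72, 50, 55 and 65 mg/dl for the wild-type pups (replicates 1 to 5). For the normoglycaemic KO pups (replicates 1 to 3) it was 44, 56 and 44 mg/dl, and for the hypoglycaemic KO pups (replicates 1 to 7) it was 9, 16, 12, 33, 14, 26 and 29 mg/dl. Because glucose divided the KO pups, a contrast between the KO groups is also a contrast between low and less low glucose, and deletion and glucose cannot be told apart in the hypoglycaemic pups. The deletion was present in every tissue that inherited it and not in liver alone, and the sources used here give neither its bounds nor the litter, sex or last feed of the pups.

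Gluconeogenesis makes glucose from lactate, glycerol and amino acids. Pyruvate carboxylase and phosphoenolpyruvate carboxykinase carry pyruvate past the irreversible step of glycolysis, fructose-1,6-bisphosphatase reverses the phosphofructokinase step, and glucose-6-phosphatase frees glucose inside the endoplasmic reticulum, to which a translocase brings its substrate. At birth the supply of maternal glucose ends, and the liver switches these genes on under glucagon, cAMP and glucocorticoids, with insulin as the brake. The coactivator PGC-1α, encoded by Ppargc1a, is best known in liver for driving Pck1 and G6pc in the fasted state.

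The 250 bases before the start site of G6pc, Pck1 and Ppargc1a are shown because the levels of these 3 genes moved together across the 15 livers. The sequences are from RefSeq on GRCm38.p6, 5′ to 3′ on the strand of the gene. Capitals mark matches to the core of the cAMP response element (TGACG, or CGTCA on the other strand), to a nuclear receptor core (AGGTCA, or TGACCT on the other strand) and to a TATA box (TATAAA, gene strand only).
G6pc, chr11:101367466-101367715, plus strand: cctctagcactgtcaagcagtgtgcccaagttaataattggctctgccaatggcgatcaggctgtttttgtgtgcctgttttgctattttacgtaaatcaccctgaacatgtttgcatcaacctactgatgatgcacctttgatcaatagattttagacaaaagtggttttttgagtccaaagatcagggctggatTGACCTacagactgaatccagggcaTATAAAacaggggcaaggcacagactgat
Pck1, chr2:173152823-173153072, plus strand: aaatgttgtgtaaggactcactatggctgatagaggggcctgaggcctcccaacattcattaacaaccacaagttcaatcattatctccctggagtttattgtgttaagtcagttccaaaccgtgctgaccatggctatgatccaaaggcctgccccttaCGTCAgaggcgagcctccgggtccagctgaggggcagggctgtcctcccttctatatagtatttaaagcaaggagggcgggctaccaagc
Ppargc1a, chr5:51567726-51567975, minus strand: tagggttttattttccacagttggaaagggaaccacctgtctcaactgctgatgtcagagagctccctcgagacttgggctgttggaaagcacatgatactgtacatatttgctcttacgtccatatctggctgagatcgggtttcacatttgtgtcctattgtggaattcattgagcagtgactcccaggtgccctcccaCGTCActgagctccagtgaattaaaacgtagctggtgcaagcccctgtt
Counted from the start site, the Pck1 promoter held CGTCA at −90 to −86 and the Ppargc1a promoter at −49 to −45. The G6pc promoter held TGACCT at −54 to −49 and TATAAA at −29 to −24. These cores were not particular to the 3 genes shown. Listed promoters of Slc37a4 held the cAMP element core, the nuclear receptor core and TATAAA, and that of Slc2a2 held the nuclear receptor core. Such matches are common: of 32851 mouse promoters of this length, 17.8% held the cAMP element core, 14.0% the nuclear receptor core and 7.59% TATAAA. The full cAMP response element TGACGTCA (1.55% of promoters), GTAAACA (3.17%, a FOXO core) and AGAACA (16.1%, a glucocorticoid receptor core), each searched on both strands, were in none of the 11 promoters listed for the 8 genes. A match describes letters only. The arrays did not measure binding, and these letters were not tested against the levels.

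The number of arrays limits the precision of every comparison. The 75th percentile of the processed signal lay between 663 and 912, and 57.9% to 76.2% of the probes were well above background. Levels are given as the log2 of the processed signal minus the log2 of the array's 75th percentile, so that a level of 0 is the brightness of the 75th percentile; levels of different probes are not compared. A difference is between group means on that log2 scale, with its standard error (SE) from limma, and adjusted p is limma's p after Benjamini-Hochberg adjustment over all 27396 genes, with a call at under 0.05. Mirg, the noncoding transcript that runs through the deleted cluster, checks the labels. It read 1.12 to 1.84 in the wild-type libraries and −2.56 to −2.45 in the normoglycaemic KO libraries. Of the 7 hypoglycaemic KO libraries 6 read −2.78 to −0.99, and the library labelled hypoglycaemic KO replicate 2 read 0.89, near wild type. Counts of calls and some differences are therefore also given without that library, while the correlations and the pathway lists include it. The brighter Mirg probe differed from wild type by −3.05 in hypoglycaemic KO livers (limma adjusted p = 0.0546). In normoglycaemic KO livers it differed by −3.97 (limma adjusted p = 0.137). Neither passed, so a difference that was not called can still be large. All 13 hepatocyte markers were well above background on every array, and their mean level ran from 8.28 to 8.58. Pancreatic acinar markers, of which 15 of 16 were tested, stood apart in 3 libraries: their mean level was 4.64 in normoglycaemic KO replicate 2, 1.75 in hypoglycaemic KO replicate 3 and 1.65 in wild-type replicate 2, and −0.35 or less in the other 12. The tested islet markers (7 of 10) were also highest in these 3 libraries, at −0.81, −0.87 and −1.54. The arrays lay on 2 slides, each with all 3 groups. The arrays read RNA of whole liver, so fewer hepatocytes and less RNA per hepatocyte cannot be told apart, and where pups of a group share a litter the p-values measure the spread between pups only.

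G6pc, Pck1 and Ppargc1a read highest in hypoglycaemic KO livers and lowest in normoglycaemic KO livers, with wild-type livers between. Slc37a4 read higher in hypoglycaemic KO livers than in both other groups. Pcx, Pck2, Fbp1 and Slc2a2 differed by at most 0.32 on the log2 scale in any of the 3 pairwise comparisons. None of these differences between groups passed limma's adjusted threshold, for any of the 8 genes.

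**Figure D1:**
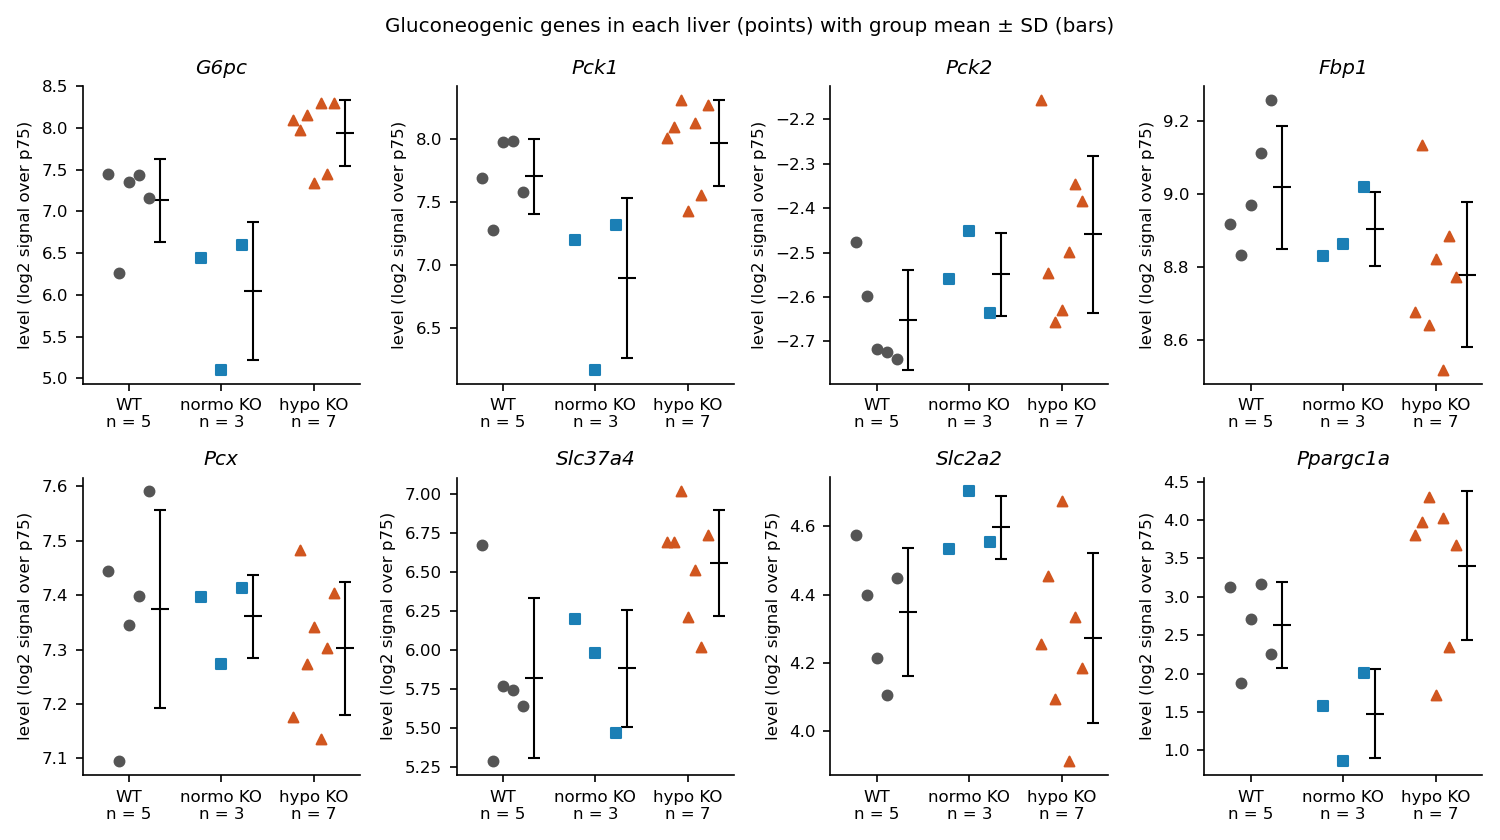
Level of each of the 8 genes in each liver (log2 processed signal minus the log2 of the array's 75th percentile; each panel has its own axis), with the mean ± SD of the group drawn beside the points (wild type n = 5, normoglycaemic KO n = 3, hypoglycaemic KO n = 7). In the G6pc and Pck1 panels the lowest hypoglycaemic KO liver (7.34 and 7.43) lies above the highest normoglycaemic KO liver (6.60 and 7.32).

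Pcx encodes pyruvate carboxylase, the mitochondrial enzyme that turns pyruvate into oxaloacetate. Its probe lies at chromosome 19, 4621610 to 4621669 (mm9). Pcx read 7.44, 7.09, 7.35, 7.40 and 7.59 in the 5 wild-type livers (replicates 1 to 5). Levels in normoglycaemic KO livers (replicates 1 to 3) were 7.40, 7.27 and 7.41. The lowest, median and highest levels in hypoglycaemic KO livers were 7.14, 7.30 and 7.48. The 3 groups overlapped. The difference between hypoglycaemic KO and wild type was −0.07 ± 0.09 (SE, adjusted p = 0.689), and its 95% confidence interval of −0.26 to 0.12 excludes a change of the size seen for G6pc.

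Pck1 encodes the cytosolic phosphoenolpyruvate carboxykinase, whose transcription is the classical control point of the pathway. Its probe lies at chromosome 2, 172984307 to 172984366 (mm9). Pck1 read 7.69, 7.27, 7.98, 7.98 and 7.58 in the 5 wild-type livers (replicates 1 to 5). The 3 normoglycaemic KO livers read 7.20, 6.16 and 7.32. Among hypoglycaemic KO livers the lowest, median and highest levels were 7.43, 8.09 and 8.30. All 7 hypoglycaemic KO livers read above all 3 normoglycaemic KO livers, while wild-type livers overlapped both KO groups.
Pck1 was 2.11-fold higher in hypoglycaemic than in normoglycaemic KO livers (difference 1.08 ± 0.26 SE, adjusted p = 0.0855), which did not pass. Over 27 alternatives its adjusted p ran from 0.0316 to 0.623. The difference was 1.28 within slide 1 and 0.66 within slide 2. Against wild type the difference was 0.27 ± 0.22 (adjusted p = 0.536) in hypoglycaemic and −0.81 ± 0.27 (adjusted p = 0.962) in normoglycaemic KO livers; both share the 5 wild-type libraries. Without normoglycaemic KO replicate 2, the library richest in acinar transcripts, the latter was −0.44.

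Pck2 encodes the mitochondrial form of the same enzyme. Its probe, at chromosome 14, 56168027 to 56168086 (mm9), was printed 10 times on each array, and the SD between its spots on an array was 0.06 to 0.15. Pck2 read −2.48, −2.60, −2.72, −2.72 and −2.74 in the 5 wild-type livers (replicates 1 to 5). Levels in normoglycaemic KO livers (replicates 1 to 3) were −2.56, −2.45 and −2.64. For the hypoglycaemic KO livers the lowest, median and highest levels were −2.66, −2.50 and −2.16. The groups overlapped, although 6 of 7 hypoglycaemic KO livers read above the wild-type mean. The difference was 0.19 ± 0.09 (adjusted p = 0.273), which did not pass.

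Fbp1 encodes the fructose-1,6-bisphosphatase of the liver. Its probe lies at chromosome 13, 62966175 to 62966234 (mm9). Fbp1 read 8.92, 8.83, 8.97, 9.11 and 9.26 in the 5 wild-type livers (replicates 1 to 5). The 3 normoglycaemic KO livers read 8.83, 8.86 and 9.02. The lowest, median and highest levels in hypoglycaemic KO livers were 8.52, 8.77 and 9.14. The hypoglycaemic group read lowest, and 5 of 7 hypoglycaemic KO livers read below every wild-type liver. The highest of the 7 was the library labelled hypoglycaemic KO replicate 2. The difference from wild type was −0.24 ± 0.11 (adjusted p = 0.238), and −0.30 (adjusted p = 0.124) without that library. Over the alternatives run, the adjusted p of this difference ran from 0.124 to 0.927.

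G6pc encodes the catalytic subunit of glucose-6-phosphatase, which performs the last step shared by gluconeogenesis and glycogen breakdown. Its probe lies at chromosome 11, 101238947 to 101239006 (mm9). G6pc read 7.45, 6.26, 7.35, 7.43 and 7.16 in the 5 wild-type livers (replicates 1 to 5). Levels in normoglycaemic KO livers (replicates 1 to 3) were 6.45, 5.10 and 6.60. Among hypoglycaemic KO livers the lowest, median and highest levels were 7.34, 8.10 and 8.30. The KO groups did not overlap, and 5 of 7 hypoglycaemic KO livers read above every wild-type liver. The lowest liver of the normoglycaemic KO group (replicate 2) and of the wild-type group (replicate 2) were libraries rich in acinar transcripts, and each of these pups had the highest glucose of its group (56 and 72 mg/dl). Hypoglycaemic KO replicate 3, also rich in acinar transcripts, read 8.16, above every wild-type liver.
G6pc was 3.72-fold higher in hypoglycaemic than in normoglycaemic KO livers (difference 1.90 ± 0.34 SE, 95% confidence interval 1.17 to 2.63). Its adjusted p of 0.0629 did not pass, and over 27 alternatives it ran from 0.0166 to 0.526, with 5 of 27 below 0.05. It ranked 27 by p among the 27396 genes. With slide as a block the difference was 1.86 (adjusted p = 0.0666), within slide 1 it was 2.12 and within slide 2 it was 1.42. Against wild type the difference was 0.81 ± 0.29 (1.76-fold, adjusted p = 0.159) in hypoglycaemic KO livers and −1.08 ± 0.36 (adjusted p = 0.962) in normoglycaemic KO livers, the latter −0.61 without normoglycaemic KO replicate 2, the library richest in acinar transcripts. All 7 hypoglycaemic KO livers read above the wild-type mean and all 3 normoglycaemic KO livers below it.

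Slc37a4 encodes the translocase that carries glucose-6-phosphate into the endoplasmic reticulum, where G6pc works. Its brighter probe lies at chromosome 9, 44210987 to 44211045 (mm9). Slc37a4 read 6.67, 5.29, 5.77, 5.74 and 5.64 in the 5 wild-type livers (replicates 1 to 5). The 3 normoglycaemic KO livers read 6.20, 5.98 and 5.47. For the hypoglycaemic KO livers the lowest, median and highest levels were 6.02, 6.69 and 7.02. Wild-type replicate 1 lay among the hypoglycaemic KO livers and kept the groups from parting, as all 7 hypoglycaemic KO livers read above the other 4 wild-type livers.
The difference between hypoglycaemic KO and wild type was 0.73 ± 0.23 (1.66-fold, adjusted p = 0.125). Without wild-type replicate 1 it was 0.95 and passed (adjusted p = 0.0365), as the calls over all genes rose from 5 to 785, and over 28 alternatives the adjusted p ran from 0.0365 to 0.753. That library had the highest wild-type level of this gene, so the passing without it adds no support. Within slide 1 the difference was 0.68 and within slide 2 it was 0.70. Between the KO groups the difference was 0.67 ± 0.27 (adjusted p = 0.19), and between normoglycaemic KO and wild type 0.06 ± 0.28 (adjusted p = 0.999). The dimmer probe, at 44205736 to 44205795, gave 0.43 ± 0.25 (adjusted p = 0.367) against wild type, in the same direction.

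Slc2a2 encodes GLUT2, the transporter by which glucose crosses the hepatocyte membrane. Its probe lies at chromosome 3, 28627016 to 28627075 (mm9). Slc2a2 read 4.58, 4.40, 4.21, 4.11 and 4.45 in the 5 wild-type livers (replicates 1 to 5). Levels in normoglycaemic KO livers (replicates 1 to 3) were 4.53, 4.70 and 4.55. The lowest, median and highest levels in hypoglycaemic KO livers were 3.91, 4.25 and 4.68. Of the 7 hypoglycaemic KO livers 6 read below every normoglycaemic KO liver, and the exception was replicate 4, the pup with the highest glucose of its group. The difference between the KO groups was −0.32 ± 0.14 (adjusted p = 0.235), and between hypoglycaemic KO and wild type −0.08 ± 0.12 (adjusted p = 0.777).

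Ppargc1a encodes PGC-1α. Its brighter probe lies at chromosome 5, 51848928 to 51848987 (mm9). Ppargc1a read 3.13, 1.87, 2.71, 3.16 and 2.26 in the 5 wild-type livers (replicates 1 to 5). The 3 normoglycaemic KO livers read 1.57, 0.85 and 2.00. Among hypoglycaemic KO livers the lowest, median and highest levels were 1.73, 3.80 and 4.30. The hypoglycaemic group held 5 livers at 3.67 or more, above every other liver, and 2 livers (replicates 4 and 6, at 1.73 and 2.35) within the range of wild type or below it.
Ppargc1a was 3.81-fold higher in hypoglycaemic than in normoglycaemic KO livers (difference 1.93 ± 0.51, adjusted p = 0.0958). Over 28 alternatives this adjusted p ran from 0.0206 to 0.634. The difference was 2.24 within slide 1 and 1.35 within slide 2. Against wild type the differences were 0.78 ± 0.44 (adjusted p = 0.351) in hypoglycaemic and −1.15 ± 0.54 (adjusted p = 0.962) in normoglycaemic KO livers. The dimmer probe, at 51846926 to 51846985, gave 2.01 ± 0.60 between the KO groups (adjusted p = 0.117).

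**Figure D2:**
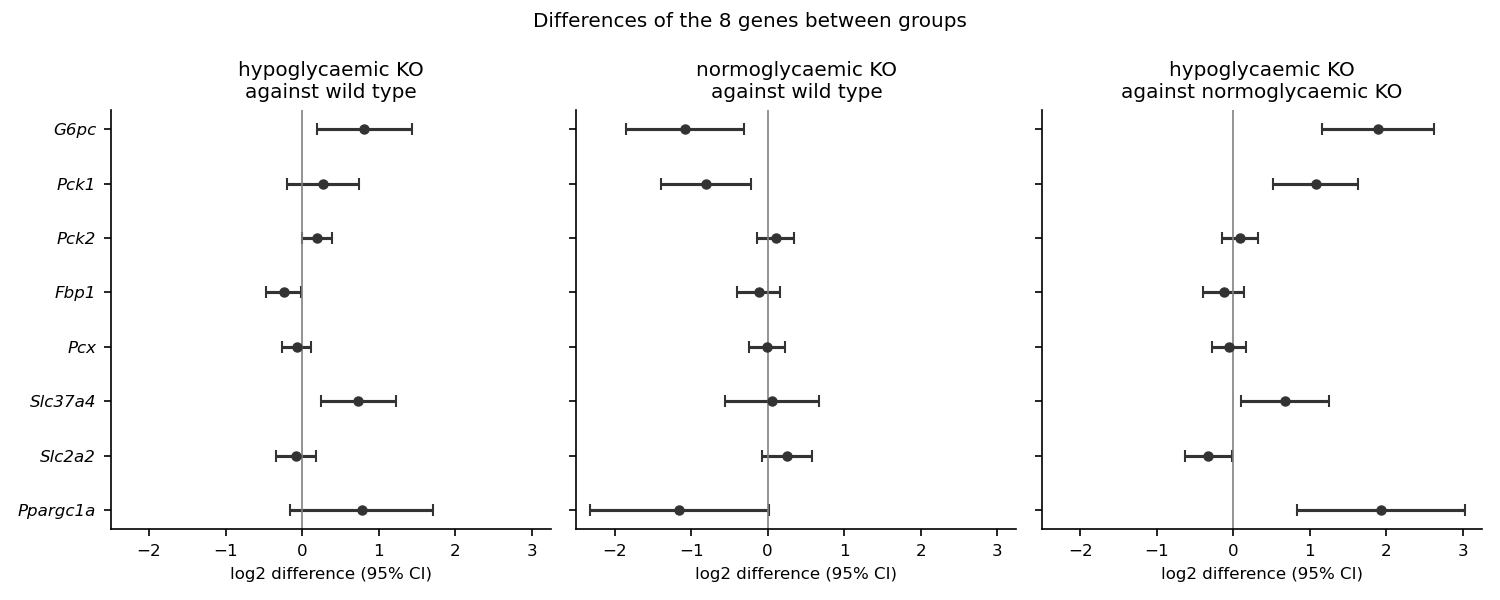
Difference of each gene between groups on the log2 scale, with its 95% confidence interval from limma. In the comparison of the KO groups G6pc, Pck1 and Ppargc1a lie at 1.90, 1.08 and 1.93, and no difference in any panel passed the adjusted threshold.

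Across the 8 genes, limma called 0 of 8 between hypoglycaemic KO and wild-type livers, where it called 0.0183% of all genes, and 3 of 8 had an unadjusted p under 0.05 (G6pc and Slc37a4 higher, Fbp1 lower) against 18.9% of all genes (9.98% higher, 8.95% lower). It called 0 of 8 between normoglycaemic KO and wild-type livers, where it called 0% of all genes, and 2 of 8 had an unadjusted p under 0.05 (G6pc and Pck1, both lower) against 4.83% of all genes (3.17% higher, 1.66% lower). Between the KO groups it called 0 of 8, with 0.0548% of all genes called, and 5 of 8 had an unadjusted p under 0.05 (G6pc, Pck1, Ppargc1a and Slc37a4 higher, Slc2a2 lower) against 19.5% of all genes (9.39% higher, 10.1% lower). The 2 genes whose KO groups did not overlap, G6pc and Pck1, compare with 4.95% of 26565 genes that parted in that direction and 4.01% in the other. Against wild type none of the 8 parted, where 0.764% of genes did so upward and 0.723% downward in hypoglycaemic KO livers and 2.45% and 1.51% in normoglycaemic KO livers. In the comparison of the KO groups G6pc and Pck1 had an exact 2-sided permutation p of 0.00833, the smallest that 120 splits allow. After adjustment over all genes this p became 0.172, so the permutation test could call no gene there, and its count of 0 of 8 in each of the 3 comparisons adds no support. With both KO groups weighted equally against wild type, 0 of 8 were called (0.0073% of all genes were), none had an unadjusted p under 0.05 (6.74% of all genes had, 3.76% higher and 2.98% lower), and the differences ran from −0.27 for Pck1 to 0.40 for Slc37a4.

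The counts of called members were also 0 of 8 in all 4 group comparisons without the library labelled hypoglycaemic KO replicate 2, where G6pc differed by 1.89, Pck1 by 1.05 and Ppargc1a by 1.84 between the KO groups. Over all genes that setting moved the calls from 5 to 148 for hypoglycaemic KO against wild type and from 15 to 0 between the KO groups. Leaving out hypoglycaemic KO replicate 4, the least hypoglycaemic pup of its group at 33 mg/dl, raised the count between the KO groups to 3 of 8: G6pc 2.00 (adjusted p = 0.0166), Pck1 1.17 (adjusted p = 0.0316) and Ppargc1a 2.21 (adjusted p = 0.0206). The calls over all genes then rose from 15 to 991, so the gain was not limited to these genes. Replicate 4 was also the lowest liver of its group in each of these 3 genes. Its removal widened their differences, so this passing adds no support. Leaving out wild-type replicate 2, which shares only the estimate of the spread with that comparison, let G6pc pass (adjusted p = 0.0313), with 375 calls over all genes. Without normoglycaemic KO replicate 2, the library richest in acinar transcripts, G6pc differed by 1.42, Pck1 by 0.71 and Ppargc1a by 1.62. Without all 3 libraries rich in acinar transcripts they were 1.39, 0.66 and 1.47, in the same direction and not called (adjusted p = 0.325, 0.399 and 0.425).

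The level of each gene was then set against blood glucose. In a model with a mean for each group and a common slope, the level fell with rising glucose by 0.71 ± 0.15 (SE) per 10 mg/dl for Ppargc1a (adjusted p = 0.059), 0.42 ± 0.11 for G6pc (adjusted p = 0.0901), 0.30 ± 0.09 for Pck1 (adjusted p = 0.112) and 0.25 ± 0.11 for Slc37a4 (adjusted p = 0.248). Slopes of the other 4 ran from −0.01 for Pck2 to 0.11 for Slc2a2. Limma called 0 of 8 of these within-group slopes, with 0% of all genes called. An unadjusted p under 0.05 was found for 4 of 8, all negative, against 18.1% of all genes (8.43% rising, 9.71% falling with glucose).

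Within the hypoglycaemic group the 4 pups at 9 to 16 mg/dl read 7.98 to 8.30 in G6pc, 8.00 to 8.30 in Pck1 and 3.80 to 4.30 in Ppargc1a. Replicates 6 and 4, at 26 and 33 mg/dl, read 7.44 and 7.34 in G6pc, 7.55 and 7.43 in Pck1 and 2.35 and 1.73 in Ppargc1a. Replicate 7, at 29 mg/dl between them, read 8.29, 8.27 and 3.67 and did not follow. With replicate 7 left out, 3 of 8 within-group slopes passed: Ppargc1a at −0.82 (adjusted p = 0.0132), G6pc at −0.51 (adjusted p = 0.0196) and Pck1 at −0.37 (adjusted p = 0.0272). The calls over all genes rose from 0 to 1018 at that setting. The library left out was the one whose levels of these same genes did not follow glucose, so this passing adds no support. Within slide 1 and slide 2 the slopes were −0.83 and −0.48 for Ppargc1a, −0.51 and −0.18 for G6pc and −0.33 and −0.17 for Pck1, none called. In the 7 hypoglycaemic KO livers alone the slopes were −0.83 for Ppargc1a, −0.26 for G6pc and −0.22 for Pck1, none called. Over all alternatives run, the adjusted p of the within-group slope ran from 0.000498 to 0.862 for Ppargc1a, from 0.000548 to 0.891 for G6pc and from 0.00124 to 0.884 for Pck1. The smallest came from a model that parted only KO from wild type, in which glucose also carries the sorting of the KO pups. Without the 3 libraries rich in acinar transcripts, the slope was −0.70 for Ppargc1a, while it was −0.23 for G6pc and −0.18 for Pck1.

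**Figure D3:**
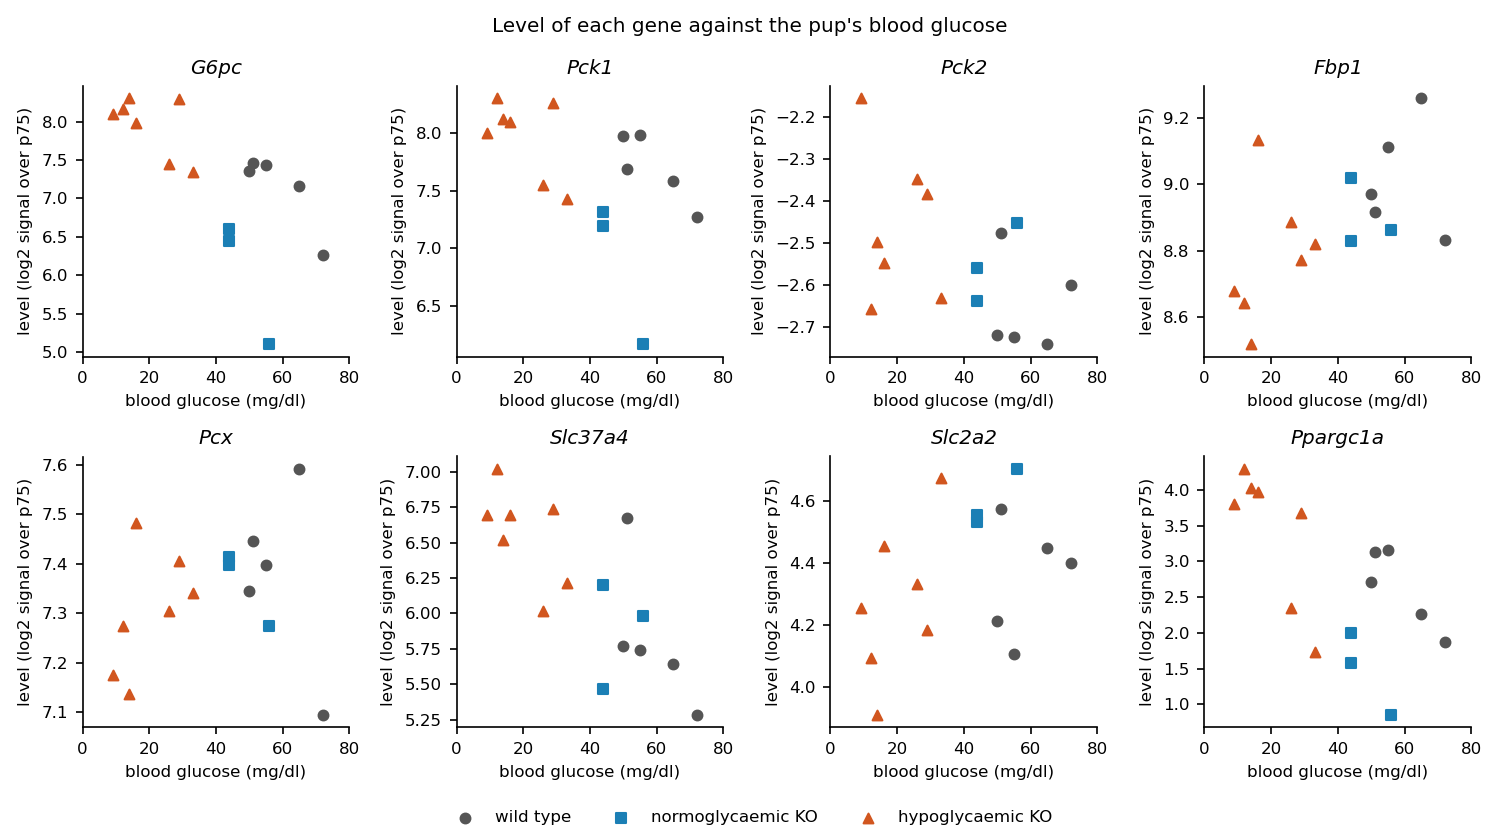
Level of each gene (log2 processed signal minus the log2 of the array's 75th percentile) against the blood glucose of the pup in mg/dl, with a marker per group. In the G6pc, Pck1 and Ppargc1a panels the hypoglycaemic KO livers at 26 and 33 mg/dl lie below the other 5 of their group.

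Over all 15 pups with no group term, 3 of 8 genes were called, each falling as glucose rose, where 17% of all genes were called. Slc37a4 fell by 0.21 ± 0.04 per 10 mg/dl (adjusted p = 0.00676), G6pc fell by 0.31 ± 0.08 (adjusted p = 0.0184) and Ppargc1a fell by 0.36 ± 0.10 (adjusted p = 0.0251). Pck1 had a slope of −0.15 ± 0.06 and missed the threshold (adjusted p = 0.0899). At an unadjusted p under 0.05 there were 5 of 8, with 4 falling and Fbp1 rising, against 31.9% of all genes (15% rising, 16.9% falling). This model does not part glucose from the groups. Normoglycaemic KO livers read below the wild-type mean in G6pc, Pck1 and Ppargc1a (3 of 3 each). Of these pups only replicate 2, at 56 mg/dl, lay within the wild-type glucose range of 50 to 72 mg/dl. The others, at 44 mg/dl, lay below it. Replicate 2 was also the library richest in acinar transcripts and the lowest of its group in all 3 genes. Within slide 1 and within slide 2 none of the 8 was called, with slopes for G6pc, Slc37a4 and Ppargc1a that were negative on both slides. Without the 3 libraries rich in acinar transcripts none was called. Without the library labelled hypoglycaemic KO replicate 2 the count was 4 of 8, with 4268 calls over all genes beside 4671 with every library. The added call was Fbp1, which rose by 0.07 per 10 mg/dl (limma adjusted p = 0.0289), while Pck1 missed the threshold (adjusted p = 0.134). Without wild-type replicate 2 the count was 1 of 8, Slc37a4 (adjusted p = 0.031), with 2561 calls over all genes. Over 27 alternatives the adjusted p of this Slc37a4 slope ran from 0.00149 to 0.212. The dimmer Slc37a4 probe gave a slope of −0.12 that was not called (adjusted p = 0.123).

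The 8 genes fell into sets by how their levels moved across the 15 livers. G6pc and Pck1 had a Pearson r of 0.95 (Spearman rho 0.93), and 0.94 after the group means were removed. G6pc and Ppargc1a had an r of 0.91 (rho 0.92), and 0.81 after removing group means. Pck1 and Ppargc1a had an r of 0.91 (rho 0.96), and 0.84 after removing group means. Leaving out the 2 libraries farthest from the median of the gene named earlier in each pair, these were 0.90, 0.90 and 0.93. Fbp1 and Pcx formed another pair (r 0.78, rho 0.74, and 0.79 without group means, but 0.59 without the 2 farthest libraries). Slc2a2 ran against G6pc, Pck1 and Ppargc1a, with r of −0.68, −0.76 and −0.75. Slc37a4 lay between, with r of 0.65 to G6pc, 0.69 to Ppargc1a and −0.28 to Slc2a2. These are descriptions of 28 pairs over 15 arrays that share their scaling and their groups.

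**Figure D4:**
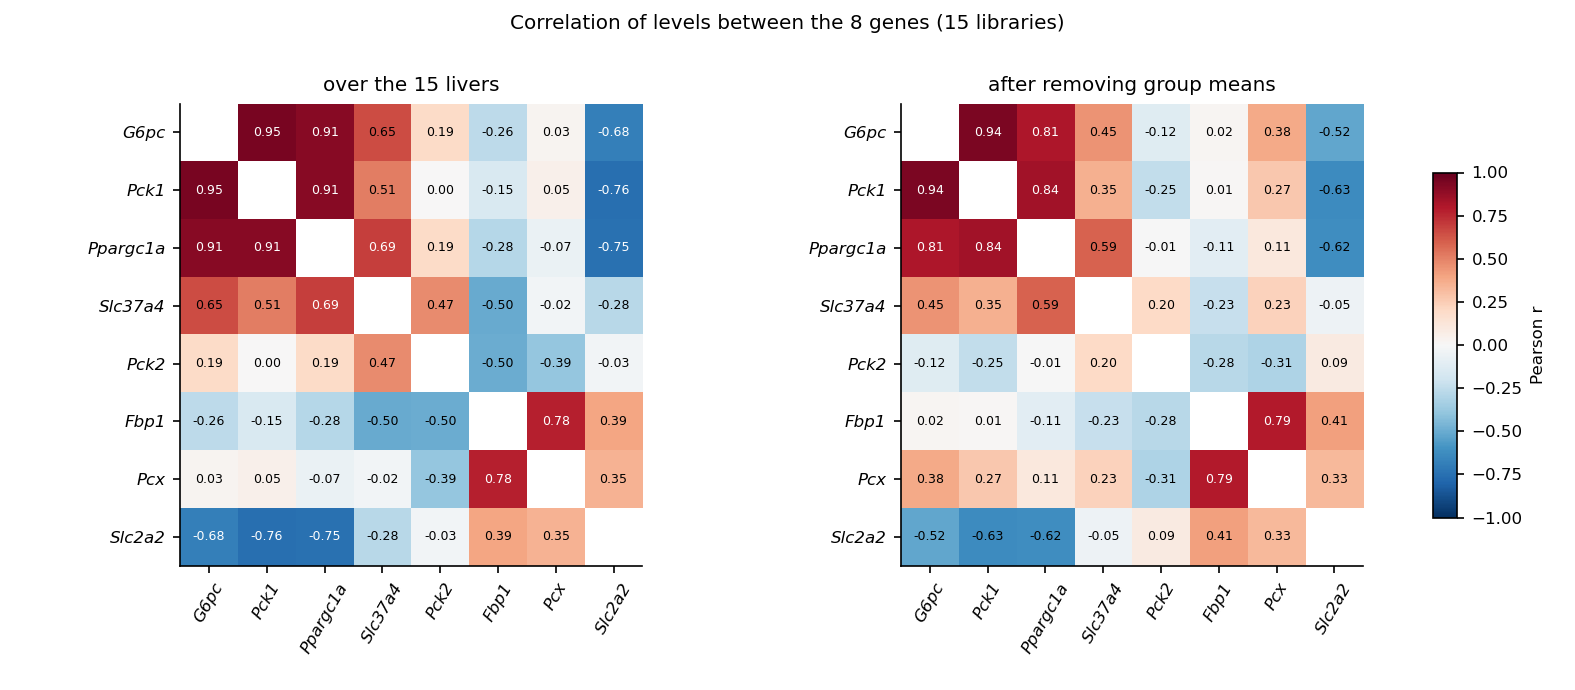
Pearson r between the levels of each pair of the 8 genes over the 15 livers, as measured (left) and after the mean of each group was subtracted (right). G6pc, Pck1 and Ppargc1a form a block of 0.91 to 0.95 on the left and 0.81 to 0.94 on the right.

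Levels were compared over 20576 entries that were well above background on all 15 arrays, and partners were named from those with a symbol. The levels most like those of G6pc were those of Proser2 (r = 0.97) and Ppp1r3g (r = 0.97). The latter is a glycogen-targeting subunit of protein phosphatase 1. Pck1 was most like Proser2 (r = 0.96) and Igfbp1 (r = 0.95), the latter an insulin-like growth factor binding protein. Ppargc1a was most like Tmtc2 (r = 0.96) and Peg3 (r = 0.96). Slc37a4 was most like Naa25 and Clca3a2 (r = 0.95 each), and Fbp1 was most like Asgr1, a subunit of the hepatic asialoglycoprotein receptor, and Decr2 (r = 0.93 and 0.92). The other 3 had weaker partners, from 0.83 for Pcx and Ptpn5 to 0.87 for Pcx and Fbxo36. Ranks over all 20576 entries, with or without a symbol, were wider for Ppargc1a. For G6pc, Pck1 stood at rank 7 and Ppargc1a at rank 89. For Pck1, G6pc stood at rank 4 and Ppargc1a at rank 12. For Ppargc1a, Pck1 stood at rank 81 and G6pc at rank 106.

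The regulators of the pathway were taken from a list of 23 transcription factors and coactivators, of which 22 were tested. None was called in a group comparison. Between hypoglycaemic KO and wild type 12 of 22 were higher and 3 lower at an unadjusted p under 0.05, beside 9.98% and 8.95% of all genes, and the median difference was 0.30, beside 0.02 over all genes. Between the KO groups the median was 0.47, beside −0.01 over all genes, with 14 of 22 higher and 2 lower at that p, beside 9.39% and 10.1% of all genes. Foxo1, the factor that insulin shuts out of the nucleus, had a mean ± SD of 2.87 ± 0.16 over the 5 wild-type livers, 2.75 ± 0.17 over the 3 normoglycaemic KO livers and 3.48 ± 0.43 over the 7 hypoglycaemic KO livers; the triplets that follow keep this order and these n. Hnf4a, the hepatocyte nuclear receptor, read 6.46 ± 0.16, 6.35 ± 0.04 and 6.87 ± 0.33 in the same order. Klf15, a fasting-induced activator of amino acid breakdown, read 1.94 ± 0.33, 1.22 ± 0.13 and 2.66 ± 0.71, the same order of groups as G6pc. The group means of the glucocorticoid receptor Nr3c1 lay between 3.60 and 3.70, and those of Creb1 between −1.53 and −1.29. The list held genes that went the other way: Cebpa read 2.58 ± 0.38 in wild-type and 2.10 ± 0.31 in hypoglycaemic KO livers.

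Against glucose over all pups, 12 of these 22 were called falling with rising glucose and 1, Cebpa, rising, where 17% of all genes were called. Ppargc1b, the closest relative of Ppargc1a, fell by 0.41 per 10 mg/dl (adjusted p = 0.0031), Klf15 fell by 0.28 (adjusted p = 0.0145), Klf9 fell by 0.26 (adjusted p = 0.00961), Foxo1 fell by 0.18 (adjusted p = 0.00662) and Hnf4a fell by 0.13 (adjusted p = 0.00639). Foxo3, Crtc2, Cebpb, Esrra, Nr4a1 and Sirt1 were also called as falling, by 0.21, 0.12, 0.18, 0.19, 0.20 and 0.09 in that order. Crtc2 and Cebpb are, like Creb1, parts of the cAMP response. Cebpa rose by 0.15 (adjusted p = 0.0121). Within groups none of the 22 slopes was called.

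Precursor supply was read from 22 genes of amino acid, lactate and glycerol entry and their shuttles. None was called between groups, and the median difference between the KO groups was 0.21. The widest differences between KO groups were those of amino acid enzymes: Sds, serine dehydratase, at 3.14 (adjusted p = 0.101), Tat, tyrosine aminotransferase, at 2.86 (adjusted p = 0.0869), and Got1, the cytosolic aspartate aminotransferase, at 1.96 (adjusted p = 0.125). Pdk4, the kinase that keeps pyruvate from oxidation, differed by 1.84 (adjusted p = 0.0629). Gpd1, the glycerol-3-phosphate dehydrogenase of the cytosol, lay in the opposite direction at −1.64 (adjusted p = 0.116). The glycerol entry genes Gk and Aqp9 differed by −0.48 and 0.30, and Gpt, an alanine aminotransferase, by −0.12. Gpt2, the mitochondrial alanine aminotransferase, differed by 0.99 (adjusted p = 0.113). Over all pups 7 of 22 were called falling with rising glucose (Sds, Tat, Got1, Pdk4, Sdsl, Gpt2 and Slc16a1, by 0.65, 0.57, 0.47, 0.38, 0.31, 0.27 and 0.06 per 10 mg/dl) and 2 rising (Gpd1 by 0.43 and Gk by 0.16). That model called 17% of all genes.

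Of 16 genes that brake the pathway none was called between groups, and their median difference was −0.0082 between hypoglycaemic KO and wild type. Trib3, a pseudokinase that binds Akt, read 1.60 ± 0.77 in wild-type, 1.25 ± 0.29 in normoglycaemic KO and 3.07 ± 0.58 in hypoglycaemic KO livers. Nr0b2, the orphan receptor SHP, read 0.13 ± 0.22, −0.52 ± 0.18 and −1.13 ± 0.94. The insulin receptor substrates differed from each other, with Irs2 at 4.78 ± 0.38, 4.06 ± 0.50 and 5.12 ± 0.26 and Irs1 at 2.22 ± 0.18, 2.08 ± 0.05 and 1.72 ± 0.24, while the receptor Insr read 1.10 ± 0.19, 0.77 ± 0.20 and 0.99 ± 0.19. Sik1, a kinase that holds CRTC2 in the cytoplasm, read 0.23 ± 0.46, −0.06 ± 0.11 and 0.61 ± 0.54. Over all pups 2 of the 16 were called falling with rising glucose and 1 rising, where 17% of all genes were called. Trib3 fell by 0.43 (adjusted p = 0.00268) and Irs2 fell by 0.17 (adjusted p = 0.041) per 10 mg/dl, while Irs1 rose by 0.10 (adjusted p = 0.0321). Of 17 genes of the glucagon, adrenergic and cAMP signal none was called between groups. The glucagon receptor Gcgr read 5.44 ± 0.18, 5.74 ± 0.12 and 5.16 ± 0.29. Of these 17 genes 2 were called falling with rising glucose over all pups and 1 rising, where 17% of all genes were called. Pde10a fell by 0.09 per 10 mg/dl, and the alpha-1B receptor Adra1b rose by 0.08.

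Of 16 genes of glucose trapping and of the glycolytic steps that oppose gluconeogenesis, none was called between groups. Over all pups 5 of the 16 were called rising with glucose and 1 falling, where 17% of all genes were called. Gckr read 4.76 ± 0.32 in wild-type, 4.81 ± 0.41 in normoglycaemic KO and 3.72 ± 0.53 in hypoglycaemic KO livers (difference from wild type −1.03, adjusted p = 0.0863). Pklr, the liver pyruvate kinase, read −1.73 ± 0.64, −1.13 ± 0.64 and −2.37 ± 0.58. Mlxipl, which encodes the glucose-sensing factor ChREBP, read 4.44 ± 0.25, 4.57 ± 0.14 and 3.92 ± 0.42. Pfkfb1 read 3.92 ± 0.30, 3.14 ± 0.39 and 4.03 ± 0.50, and Pfkfb3 0.71 ± 0.18, 0.92 ± 0.24 and 0.63 ± 0.32; both make or remove fructose-2,6-bisphosphate, the inhibitor of Fbp1. The genes called as rising with glucose were Gckr, Pklr, Mlxipl, Pfkm and Hk3, by 0.28, 0.27, 0.15, 0.12 and 0.09 per 10 mg/dl, and Pfkfb2 fell by 0.26. Of 9 listed enzymes of triose and hexose steps, not all of them shared with glycolysis, none was called between groups. Of 16 tested relatives of the glucose-6-phosphatase and glucose transporter genes none was called between groups. G6pc3, the widely expressed relative of G6pc, read 2.71 ± 0.06, 2.79 ± 0.05 and 2.90 ± 0.10, and Slc2a1, which encodes GLUT1, 3.31 ± 0.45, 3.01 ± 0.22 and 3.65 ± 0.40. Slc2a3, which encodes GLUT3, read 1.98 ± 0.22, 1.98 ± 0.27 and 2.23 ± 0.23. Over all pups 1 of the 9 triose and hexose enzymes and 2 of these 16 relatives were called, all rising, where 17% of all genes were called. Tkfc, a triokinase, rose by 0.39 per 10 mg/dl, and Slc5a2 and Slc2a9 of the transporter genes rose by 0.33 and 0.15.

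**Figure D5:**
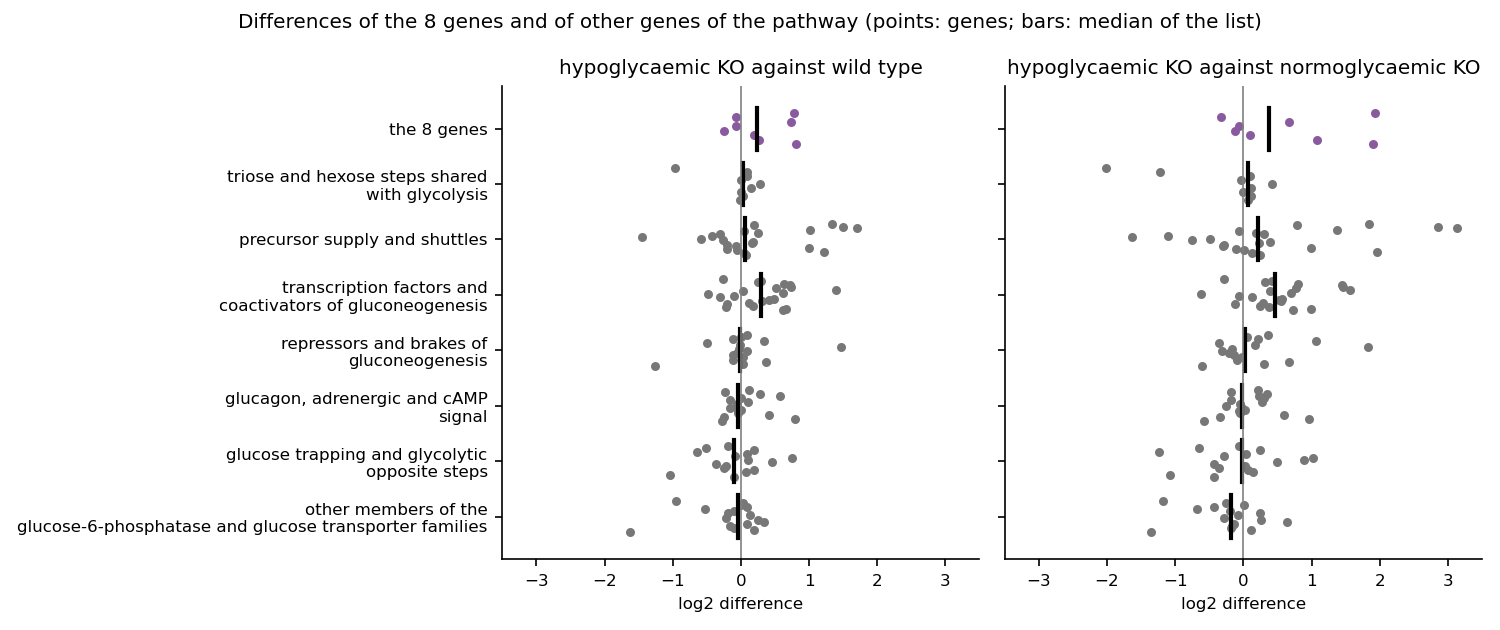
Differences on the log2 scale of the 8 genes and of the tested members of 7 other lists of the pathway (points), with the median of each list (bar), for hypoglycaemic KO against wild type (left) and against normoglycaemic KO (right). The list of transcription factors and coactivators has medians of 0.30 and 0.47, and no point was called.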

How the data were processed

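Per the labels, liver RNA of 15 pups was hybridised to single-colour Agilent arrays. Per the file headers, the deposited intensity values are processed signals of Agilent Feature Extraction 10.10, already background-subtracted, with no scaling between arrays. The authors also deposited a table of normalized log2 values (40048 probes, 27008 genes), which per the submitters' processing notes was handled in limma (version not given in the sources used here) and served as an alternative.

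From the intensities, control and flagged spots were dropped, spots of a probe were averaged, and log2 signals were centred on the 75th percentile of each array. Probes well above background on at least 3 arrays were kept (40889 of 55681), and the brightest probe stood for a gene. Probe names came from the files, updated through RefSeq where possible. The GRCm38.p6 promoters belong to another build than the mm9 probe positions, and an mm9 gene annotation was not used here, so the exon of a probe is not given.

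Tests used limma 3.58.1 in R 4.3.3 (lmFit and eBayes, all groups in 1 model, threshold 0.05 after Benjamini-Hochberg adjustment) and were tested on simulated data. Other tables used Python 3.11.15, numpy 2.4.6, pandas 2.3.3 and matplotlib 3.10.9. The 8 genes were all named, with further pathway genes from lists by their known role and the 2 genes of most similar level for each. Some genes of the lists are counted but not reported here by name. The 8 genes and the lists were chosen with earlier results of these data known, and no count over them is independent evidence. Alternatives covered scaling, the deposited log2 values, the filter, slide, the replicate number, each library left out, the 3 libraries rich in acinar transcripts, the group terms, other probes and exact permutation.

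Replicate numbers shared by groups were not taken as pairs.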

Additional observations from a re-analysis of the deposited data

Results flagged for a closer look

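Wild-type replicate 2 stood apart from its group in G6pc. Its level was 6.26 and the next wild-type liver read 7.16, a gap that was 0.753 of the range of the 5 wild-type livers. Chance sets apart about 1 in 20 such groups, and this was the only case in 16 groups tested. The same library was rich in acinar transcripts (mean level 1.65), and its pup had the highest glucose of all 15, 72 mg/dl; the part of either in the G6pc level was not tested.

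Against the wild-type mean, G6pc was higher in 7 of 7 hypoglycaemic KO livers and lower in 3 of 3 normoglycaemic KO livers. The difference between these effects was 1.90 on the log2 scale, and limma's test of it did not pass (adjusted p = 0.0629).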

How the results depend on the processing

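Of the 48 values of single genes, the direction and the side of the threshold were kept by 48 without a filter on dim probes, 47 with arrays scaled to the median, 46 with quantile normalization, 46 with slide as a block and 43 with the replicate number as a block. Exact permutation was run for the 3 pairwise comparisons, where it could not call a gene between the KO groups, and was not run for both KO groups against wild type. The cause was not tested for any change given here, beyond the smaller number of arrays within a slide or without libraries.

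Between the KO groups, 1 of 8 genes (G6pc) was called with normexp and quantile normalization, with the deposited log2 values and with probes well above background on all 15 arrays, and 0 to 3 with a library left out. Against wild type 0 to 1 were called in hypoglycaemic KO livers with a library left out, 0 to 0 in normoglycaemic KO livers and 0 to 0 in both KO groups. Of the slopes within groups, 1 (Ppargc1a) was called under those same 3 settings, 3 with the 10 KO arrays as 1 group, 5 with KO against wild type as the only group term, and 0 to 3 with a library left out. Of the slopes over all pups, 0 were called within slide 1, 0 within slide 2, 0 without the 3 libraries rich in acinar transcripts, 1 with the replicate block, and 1 to 4 with a library left out. The median over the 8 genes, with a library left out, ran from 0.18 to 0.29 for hypoglycaemic KO against wild type, −0.12 to −0.02 for normoglycaemic KO, 0.26 to 0.46 between the KO groups, −0.17 to 0.02 for both KO groups, −0.16 to −0.09 for the slope within groups and −0.11 to −0.08 over all pups.

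Counts over all genes moved more. For hypoglycaemic KO against wild type (5 genes) they were 25 with median scaling, 68 with normexp and quantile normalization, 51 with the deposited values, 2 without a filter, 88 with the 15-array filter, 0 within slide 1, slide 2, the replicate block, without the acinar-rich libraries and by permutation, and 0 to 785 with a library left out (785 without wild-type replicate 1). Between the KO groups (15 genes) they were 5, 138, 28, 0 and 165 under the same 5 settings, 0 with slide as a block, 0 within slide 1, 3 within slide 2, 0 with the replicate block, without the acinar-rich libraries and by permutation, and 0 to 991 with a library left out (991 without hypoglycaemic KO replicate 4). For normoglycaemic KO against wild type (0 genes) they were 1 with median scaling, 2 with quantile normalization, 2 with the deposited values, 1 with the 15-array filter, 3 within slide 2 and 0 to 2 with a library left out. For both KO groups (2 genes) they were 1 with quantile normalization, 1 without the acinar-rich libraries, 0 without a filter, with slide as a block, within either slide and with the replicate block, and 0 to 17 with a library left out (17 without hypoglycaemic KO replicate 2). For the slope within groups (0 genes) they were 71 with quantile normalization, 486 with normexp, 265 with the deposited values, 538 with the 15-array filter, 1 within slide 1, 1 with the replicate block, 2508 with the 10 KO arrays as 1 group, 4798 with KO as the only group term, and 0 to 1018 with a library left out (1018 without hypoglycaemic KO replicate 7). Over all pups (4671 genes) they were 0 within slide 1, 0 within slide 2, 3098 with the replicate block, 601 without the acinar-rich libraries and 2561 to 5491 with a library left out.

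Reversals concerned small values that were not called. Pcx turned to 0.057 for both KO groups and 0.048 for hypoglycaemic KO against wild type within slide 1. For normoglycaemic KO it turned to 0.042 with quantile normalization, 0.068 with normexp, 0.080 with the deposited values, 0.0014 with slide as a block, 0.066 within slide 1 and 0.012 with the replicate block. Its slope over all pups was −0.013 within slide 1. Its slope within groups was 0.0077 with median scaling, 0.016 with quantile normalization, 0.025 with normexp, 0.034 with the deposited values, 0.17 within slide 2, 0.085 without the acinar-rich libraries, 0.064 in hypoglycaemic KO arrays alone, 0.025 with the 10 KO arrays as 1 group and 0.011 with KO as the only group term. Slc37a4 in normoglycaemic KO against wild type turned to −0.024 with slide as a block, −0.25 within slide 2, −0.072 with the replicate block and −0.12 without the acinar-rich libraries. The slope within groups turned to 0.040 for Pck2 within slide 2 and to −0.061 for Fbp1 with the replicate block. With a library left out, G6pc ran from −0.35 to 0.10 and Pcx from −0.11 to 0.011 for both KO groups, Pcx from −0.084 to 0.041 and Slc37a4 from −0.098 to 0.27 for normoglycaemic KO, and the slope within groups from −0.033 to 0.031 for Pck2 and −0.024 to 0.056 for Pcx. The deviations of same-numbered libraries from their group means correlated by −0.17 to 0.32 over 11 pairs (median 0.12, 5 at or below 0.1), against −0.28 to 0.22 over 60 other pairs (median −0.015). Some numbers thus deviated together, but not every pair passed 0.1, so the block is given as an alternative only. The highest of these pairs was wild-type replicate 2 with normoglycaemic KO replicate 2, both rich in acinar transcripts. Replicate 1 of each group lay on slide 1. What made same-numbered libraries deviate together was not tested. With the replicate block, between the KO groups, G6pc differed by 1.92 (adjusted p = 0.0808, limma), Pck1 by 1.14 and Ppargc1a by 2.29.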
